A study of Mus musculus with 6 samples.

Results

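Circadian clock genes in the heart were followed through 4 genes, *Clock*, *Tef*, *Ciart* and *Bhlhe40*, which were taken by name from a deposited table of 4132 genes. All 4 had a mean of at least 1 FPKM (fragments scaled to transcript length and to library size) and so were among the 2041 genes tested. The RNA came from hearts of *db/db* mice, given as lepr-/- in the labels, which carry a mutated leptin receptor in every tissue and become obese and diabetic. From 10 weeks of age, 3 mice received an FGF1 variant, FGF1ΔHBS, by intraperitoneal injection at 0.5 mg/kg every other day for 16 weeks, and 3 vehicle mice received saline instead. FGF1ΔHBS is a growth factor whose binding to heparan sulfate is weakened, so that it drives cell division less. All 6 mice were 26 weeks old at harvest and, by the methods of the study, male and of the C57BLKS/J strain. Hearts of lean *db/m* littermates were not analysed here, so each comparison is between diabetic mice. The sources used here do not give the hour at which the hearts were taken, and each heart gives a level at 1 moment and not a rhythm.

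The circadian clock is a loop of transcription that runs in nearly every cell, the cardiomyocyte included. CLOCK and its partner BMAL1 bind a DNA element called the E-box and switch on the genes of their own repressors, which then build up and close the loop. The loop also drives output factors of the PAR bZIP family, which pass the rhythm on to genes of metabolism, and in the heart it shapes fuel use, ion channel levels and growth over the day.

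The 4 genes hold different places in this loop. *Clock* (ENSMUSG00000029238, chr5:76209868-76304792 of GRCm38, minus strand) encodes the activator itself. *Ciart* (ENSMUSG00000038550, chr3:95878503-95882251, minus strand), also known as Chrono, encodes a repressor of CLOCK and BMAL1. *Bhlhe40* (ENSMUSG00000030103, chr6:108660629-108666925, plus strand), also known as Dec1, encodes a second kind of repressor, which itself binds E-boxes and also responds to stimuli outside the clock. *Tef* (ENSMUSG00000022389, chr15:81802421-81826863, plus strand) encodes thyrotroph embryonic factor, a PAR bZIP output factor. For *Ciart* the locus in the deposited table spans 20484 bases against 3749 bases of the gene in GENCODE M21, and for *Bhlhe40* it spans 89887 against 6297 bases. Other genes lie in these loci. On the same strand, the protein-coding gene *BC028528* lies in the locus of *Ciart* and ends where that locus ends, and *Gm17055* lies in the locus of *Bhlhe40*, each with 0 exonic bases shared. Whether reads of these genes were counted with *Ciart* or *Bhlhe40* was not tested. Genes on the opposite strand lie there too. *Bhlhe40* shares 118 exonic bases, or 2.51% of its exonic bases, with the antisense gene *0610040F04Rik*, *Tef* shares 193 bases (2.45%) with *Gm17597*, and *Ciart* shares 0 exonic bases with *C920021L13Rik*. The sources used here do not say whether strand was kept, and without it reads from a gene and its antisense partner cannot be told apart over the shared bases. In an intron of *Clock* lies the pseudogene *Ube2n-ps1*, which has a row of its own in the table and shares 0 exonic bases with *Clock*.

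The promoters are shown because the E-box is where CLOCK and BHLHE40 bind. RefSeq windows of GRCm38.p6, from 250 bases before to 50 after a transcription start, were given for 3 of the 4 genes, *Clock*, *Tef* and *Ciart*. Capitals mark the E-box, CACGTG, which reads the same on both strands. For *Clock* the most upstream of its 3 windows is printed.
Ciart, chr3:95882179-95882478, minus strand: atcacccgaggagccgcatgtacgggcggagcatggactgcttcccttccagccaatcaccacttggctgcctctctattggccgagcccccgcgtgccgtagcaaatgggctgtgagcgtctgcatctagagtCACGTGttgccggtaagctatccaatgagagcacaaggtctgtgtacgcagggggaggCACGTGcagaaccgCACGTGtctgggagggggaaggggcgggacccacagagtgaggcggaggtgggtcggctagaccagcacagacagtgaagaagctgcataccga
Tef, chr15:81802423-81802722, plus strand: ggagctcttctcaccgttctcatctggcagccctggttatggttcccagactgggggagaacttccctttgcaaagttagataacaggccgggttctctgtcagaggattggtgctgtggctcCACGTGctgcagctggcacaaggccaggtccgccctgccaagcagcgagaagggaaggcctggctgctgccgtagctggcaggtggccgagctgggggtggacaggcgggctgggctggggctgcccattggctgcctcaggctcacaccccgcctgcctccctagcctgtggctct
Tef, chr15:81811164-81811463, plus strand: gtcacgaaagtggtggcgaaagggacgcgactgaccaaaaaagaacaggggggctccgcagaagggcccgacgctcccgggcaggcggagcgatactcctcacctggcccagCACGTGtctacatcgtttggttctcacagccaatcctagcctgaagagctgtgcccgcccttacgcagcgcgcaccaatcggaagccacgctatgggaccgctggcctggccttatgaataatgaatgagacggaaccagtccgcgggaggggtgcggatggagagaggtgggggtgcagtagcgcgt
Clock, chr5:76304743-76305042, minus strand: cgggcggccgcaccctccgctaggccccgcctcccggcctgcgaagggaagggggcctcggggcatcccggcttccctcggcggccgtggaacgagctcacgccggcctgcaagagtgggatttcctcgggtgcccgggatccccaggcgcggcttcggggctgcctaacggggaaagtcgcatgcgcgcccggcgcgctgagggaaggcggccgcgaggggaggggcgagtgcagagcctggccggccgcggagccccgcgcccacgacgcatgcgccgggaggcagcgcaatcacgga
The window of *Ciart* held 3 E-boxes, which begin 116, 58 and 44 bases before the start. Of all 32851 promoter windows of this length, 2349 (7.15%) held at least 1 E-box and 29 (0.0883%) held at least 3. Each of the 2 windows of *Tef* held 1 E-box, 127 and 138 bases before its start, and the 3 windows of *Clock* held 0. The E-box variant CACGTT and the D-box TTANGTAA, the element that TEF binds, were searched on both strands and were found 0 times in these 6 windows, against 4.68% and 2.32% of all windows. AGGTCA, the half-site bound by ROR and REV-ERB receptors, was found once, in the window of *Clock* at chr5:76303453-76303752, and in 16.3% of all windows. A match is a run of letters and was not tested for binding.

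The 2 repressors were lower in FGF1ΔHBS-treated hearts, and the activator and the output factor lay close to their vehicle levels. *Ciart* was at 0.508 and *Bhlhe40* at 0.681 of the vehicle mean, with every treated mouse below every vehicle mouse for both. The test was limma, fitted to log2(FPKM + 1), a scale that understates the change of low genes, and p-values were adjusted by Benjamini and Hochberg over the 2041 genes tested. None of the 4 genes had an adjusted p-value under 0.05, which 2 of the genes tested (0.098%) had. At an unadjusted p-value under 0.05, 2 of the 4 were lower and 0 were higher with FGF1ΔHBS, beside 10% of all genes tested that were lower and 7.1% that were higher. The groups did not overlap, in the lower direction, for the same 2 genes and for 13.6% of all genes tested (24.3% in either direction). The 4 genes and the lists below were chosen with earlier results of these data known. Counts of them beside the shares of all genes are therefore not a test. The number of mice limits these tests, since 0.1 is the smallest p that a two-sided exact permutation test can reach with 3 mice in each group. The library of vehicle replicate 2 stood apart: its values in the table summed to 152340 FPKM, against 215805 to 232837 in the others, and the mitochondrial gene *mt-Co2* and the pseudogene *Gm28661* are listed at 0 in it. Without this mouse the log2 fold changes were -0.57 for *Ciart* (adjusted p = 0.257) and -0.42 for *Bhlhe40* (adjusted p = 0.265), against -0.73 and -0.50 with it, all by limma. In whole hearts, less RNA per cell and fewer cells that express a gene cannot be told apart.

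**Figure D1:**
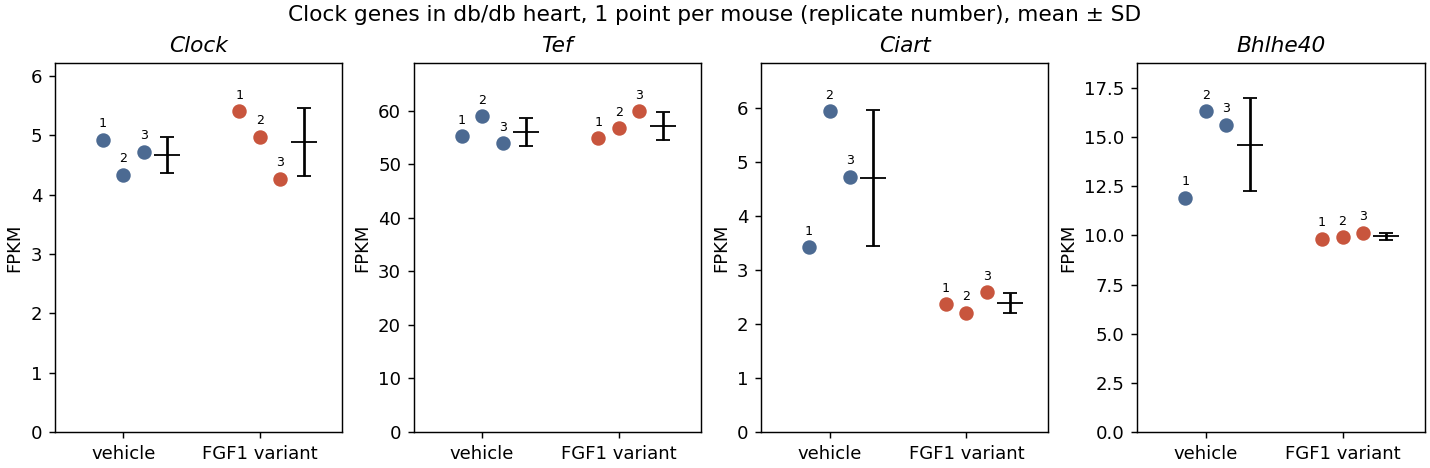
FPKM of the 4 clock genes in each mouse (points, with the replicate number), by group, with the group mean and SD (bars, n = 3 mice). The treated mice lie below all vehicle mice for *Ciart* (2.21 to 2.58 against 3.42 to 5.94) and *Bhlhe40* (9.82 to 10.1 against 11.9 to 16.3), and the groups overlap for *Clock* and *Tef*.

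*Ciart* was at 3.42, 5.94 and 4.73 FPKM in vehicle replicates 1, 2 and 3, and at 2.36, 2.21 and 2.58 FPKM in FGF1ΔHBS replicates 1, 2 and 3. The vehicle hearts were spread and the treated hearts were close together, with the highest treated heart still below the lowest vehicle heart. Vehicle hearts averaged 4.70 ± 1.26 FPKM and treated hearts 2.39 ± 0.19 FPKM (SD, n = 3 each). On the log2 scale this was a change of -0.73 ± 0.17 (SE), with a 95% interval from -1.12 to -0.34. By limma the unadjusted p was 0.00305 and the Benjamini-Hochberg adjusted p 0.116, and the two-sided exact permutation test gave p = 0.1, the smallest it can give. By unadjusted p-value *Ciart* ranked 52 among the 2041 genes, and 1.32% of the genes tested had a lower log2 fold change.

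*Bhlhe40* was at 11.9, 16.3 and 15.6 FPKM in vehicle replicates 1, 2 and 3. It was at 9.82, 9.91 and 10.1 FPKM in FGF1ΔHBS replicates 1, 2 and 3. As for *Ciart*, vehicle replicate 1 was the lowest and vehicle replicate 2 the highest of the vehicle hearts, and the groups did not overlap. The means were 14.6 ± 2.38 and 9.95 ± 0.16 FPKM (SD, n = 3 each). The change on the log2 scale was -0.50 ± 0.12 (SE), with a 95% interval from -0.78 to -0.22. Its Benjamini-Hochberg adjusted p was also 0.116 (unadjusted p = 0.00365, limma), and the exact permutation test again gave p = 0.1. It ranked 62 by unadjusted p-value, and 3.28% of the genes tested had a lower log2 fold change. Vehicle replicate 1 decides the side of the threshold: without it the log2 fold change of *Bhlhe40* was -0.63 and the adjusted p-value 0.0431 by limma, and that of *Ciart* was -0.90 with an adjusted p-value of 0.069.

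*Clock* was at 4.93, 4.33 and 4.72 FPKM in vehicle replicates 1, 2 and 3 and at 5.41, 4.97 and 4.27 FPKM in FGF1ΔHBS replicates 1, 2 and 3. The highest and the lowest of the 6 hearts were both treated ones, so the vehicle range lay inside the treated range. The means were 4.66 ± 0.30 and 4.88 ± 0.57 FPKM (SD, n = 3 each), with a log2 fold change of 0.052 (standard error 0.10, adjusted p = 0.842 by limma). The 95% interval ran from -0.19 to 0.29, so changes between 0.877-fold and 1.23-fold on this scale were within the error. The exact permutation test gave p = 0.7. Without FGF1ΔHBS replicate 1, the heart with the most *Clock*, the log2 fold change was -0.011.

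*Tef* was at 55.2, 58.9 and 53.9 FPKM in vehicle replicates 1, 2 and 3 and at 54.8, 56.7 and 59.9 FPKM in FGF1ΔHBS replicates 1, 2 and 3. The ranges overlapped over most of their length. Its means of 56.0 ± 2.63 and 57.1 ± 2.57 FPKM (SD, n = 3 each) gave a log2 fold change of 0.028 (standard error 0.067, adjusted p = 0.867 by limma). The 95% interval from -0.13 to 0.19 corresponds to 0.914-fold to 1.14-fold and is the narrowest of the 4 genes. The exact permutation test gave p = 0.6, and without FGF1ΔHBS replicate 3, the heart with the most *Tef*, the log2 fold change was -0.0058.

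**Figure D2:**
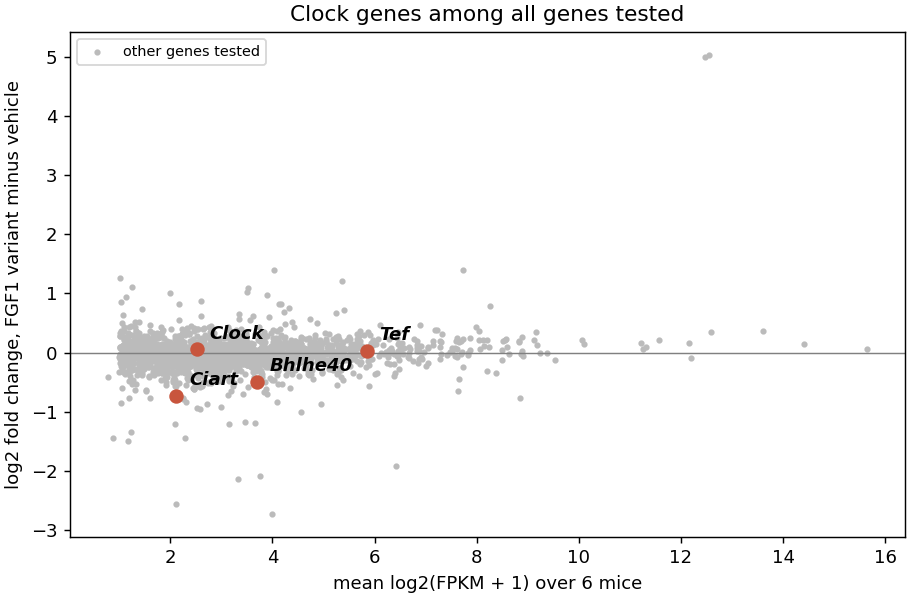
Log2 fold change of FGF1ΔHBS against vehicle (vertical axis) by the mean log2(FPKM + 1) over 6 mice (horizontal axis) for the 2041 genes tested, with the 4 clock genes in red. *Ciart* and *Bhlhe40* lie toward the lower edge of the cloud, and *Clock* and *Tef* lie near the line at 0. The pair of grey points far above the cloud are *mt-Co2* and *Gm28661*.

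The 4 transcripts differed widely in level. In every heart *Tef* had the highest FPKM of the 4 and *Bhlhe40* the next, and no *Tef* value came near a *Bhlhe40* value. *Tef* was above 92% of the genes tested by its mean over 6 mice, *Bhlhe40* above 67.1%, *Clock* above 36.5% and *Ciart* above 27.5%. The order of the lower pair varied among the vehicle hearts and was the same in all treated hearts. With vehicle, *Ciart* was above *Clock* in replicate 2, level with it in replicate 3 (4.73 and 4.72 FPKM) and below it in replicate 1, so these neighbours did not differ beyond their spread. With FGF1ΔHBS, *Ciart* was below *Clock* in 3 of 3 hearts, and the values of the 2 genes did not overlap.

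The vehicle hearts also differed more among themselves than the treated hearts in the 2 repressors. For *Bhlhe40* the coefficient of variation was 16.2% with vehicle and 1.6% with FGF1ΔHBS, and for *Ciart* it was 26.9% and 7.97%. The medians over all genes tested were 11.1% and 8.35%. The SD on the log2 scale was 11 times as large with vehicle as with FGF1ΔHBS for *Bhlhe40* and 4.05 times for *Ciart*. Of all genes tested, 1.71% and 9.85% had a larger ratio of SDs than these, and with 3 mice in each group a ratio of SDs is itself imprecise, so it is given without a test. *Clock* went the other way, at 6.49% and 11.7%, and *Tef* was at 4.69% and 4.50%.

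Ratios to *Clock* within each heart do not depend on a scaling factor that all genes of a library share. *Ciart* was at 0.694, 1.37 and 1.0 times the FPKM of *Clock* in vehicle replicates 1, 2 and 3 and at 0.437, 0.444 and 0.605 times in FGF1ΔHBS replicates 1, 2 and 3. The log2 ratio was lower with FGF1ΔHBS by a mean difference of -1.01 (standard error 0.32), the groups did not overlap and the two-sided exact permutation test gave p = 0.1. *Bhlhe40* was at 2.42, 3.77 and 3.31 times *Clock* with vehicle and at 1.82, 1.99 and 2.37 times with FGF1ΔHBS. Vehicle replicate 1 and FGF1ΔHBS replicate 3 nearly met in this ratio, which differed by -0.60 on the log2 scale (standard error 0.22, exact permutation test, p = 0.1). Unlike the fold changes above, these ratios use FPKM with no pseudocount. With 1 added to each FPKM, the log2 differences were -0.78 for *Ciart* and -0.55 for *Bhlhe40*. The ratio of *Tef* to *Clock* overlapped between the groups, at 11.2 to 13.6 with vehicle and 10.1 to 14 with FGF1ΔHBS, and its log2 difference was -0.034 (standard error 0.16, exact permutation test, p = 0.9).

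**Figure D3:**
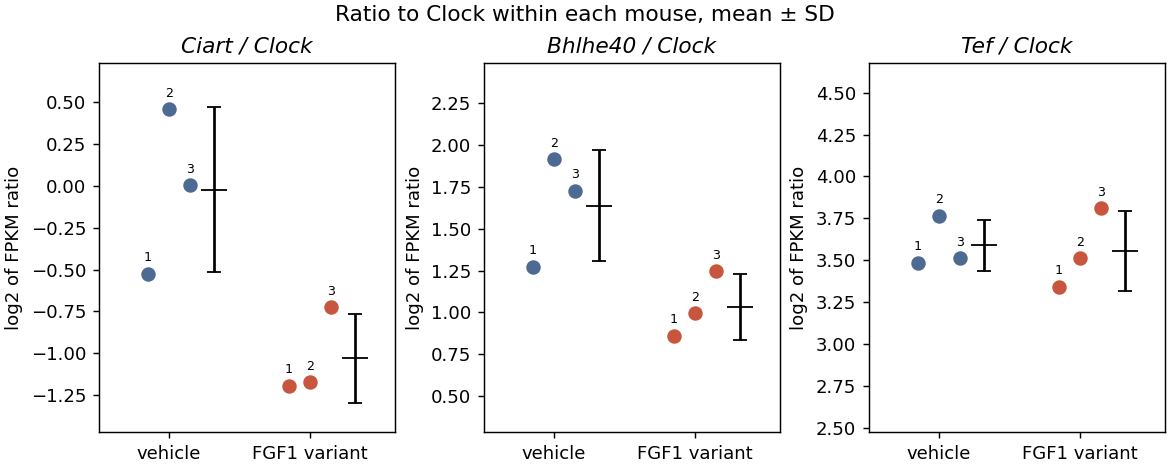
Log2 of the FPKM ratio of *Ciart*, *Bhlhe40* and *Tef* to *Clock* in each mouse (points, with the replicate number), by group, with the mean and SD (bars, n = 3 mice) and axes of equal span. The groups are apart for *Ciart* and *Bhlhe40*, and those of *Tef* overlap.

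*Ciart* and *Bhlhe40* followed the same order among vehicle mice and were both lower with FGF1ΔHBS. Among treated mice the order differed, with *Ciart* lowest in replicate 2 and *Bhlhe40* lowest in replicate 1. Pearson's r of their log2(FPKM + 1) was 0.986 over 6 mice, and 2 of the genes tested had a higher r with *Ciart*, *Hivep1* at 0.995 and *Xrcc1* at 0.988. The same 2 genes were the others most like *Bhlhe40*, *Xrcc1* at 0.988 and *Hivep1* at 0.985. *Hivep1* encodes a zinc finger transcription factor and *Xrcc1* a scaffold protein of DNA single-strand break repair. The genes most opposite to *Ciart* were *Zfp870* (r of -0.991), *Coq7* (-0.985) and *Rpl32* (-0.984), and those most opposite to *Bhlhe40* were *Rpl32* (-0.996), *Tsr2* (-0.990) and *Coq7* (-0.988). *Coq7* serves ubiquinone synthesis, *Rpl32* encodes a ribosomal protein and *Tsr2* takes part in ribosome assembly. These r values describe 6 points that share the group difference, they were picked as the extremes of all genes tested, and they carry no test.

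*Clock* and *Tef* ran against each other over the 6 hearts. The hearts with the least *Clock*, FGF1ΔHBS replicate 3 and vehicle replicate 2, were those with the most *Tef*. Of the 6 pairs among the 4 genes only this 1 was tested, since in the other 5 the groups formed separate clusters. Pearson's r was -0.764 (exact permutation test, p = 0.0889) and Spearman's rho -0.60 (exact permutation test, p = 0.242), and with 1 test in the family the adjusted values are the same. Without the 2 hearts farthest from the median of *Clock*, r was -0.610. The relation did not pass 0.05. The genes most like *Clock* were *Vps13a* (r of 0.978), *Dctn6* (0.965) and *Med19* (0.965), and the most opposite were *Wdr6* (-0.956), *Mfsd13a* (-0.954) and *Hipk1* (-0.928). Those most like *Tef* were *Mocs3* (0.995), *Src* (0.956) and *Tmem254b* (0.951), and the most opposite were *Ate1* (-0.955), *Unc45b* (-0.939) and *Fam136a* (-0.917).

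The rest of the clock was covered in part. The other activators, the PER, CRY and REV-ERB repressors and the other PAR bZIP factors were not analysed here, and of 50 further clock genes listed 7 were tested. None of the 7 had an adjusted or an unadjusted p-value under 0.05 by limma, beside 17.1% of all genes tested at the latter. Their median log2 fold change was -0.034, against -0.021 over all genes tested. *Csnk1e*, a kinase that marks PER proteins for degradation, averaged 18.5 ± 1.37 FPKM with vehicle and 16.3 ± 2.0 FPKM with FGF1ΔHBS (SD, n = 3 each), with a log2 fold change of -0.18. *Timeless*, a partner of the replication fork and of CRY proteins, was at 3.82 ± 0.87 and 2.83 ± 0.54 FPKM (SD, n = 3 each), with a log2 fold change of -0.33. When single mice were left out, *Timeless* had an unadjusted limma p of 0.0407 without vehicle replicate 1 (adjusted p = 0.292) and of 0.0389 without FGF1ΔHBS replicate 1 (adjusted p = 0.325). *Csnk1e* had an unadjusted limma p of 0.0253 without FGF1ΔHBS replicate 3 (adjusted p = 0.313). *Gsk3a*, *Gsk3b* and *Csnk2b*, which encode parts of kinases that act on clock proteins, and *Sirt1* and *Ncoa2*, which encode cofactors, had log2 fold changes between -0.050 and 0.043.

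Of 26 genes listed for a daily rhythm in heart or other tissues, 7 were tested, and their median log2 fold change was -0.094. At an unadjusted p-value under 0.05, 3 of the 7 were lower and 0 were higher, beside 10% and 7.1% of all genes tested. Since the list was chosen with earlier results of these data known, these counts are not a test of it. *Klf10*, a Krüppel-like factor driven by the clock and by TGF-β, was at 5.96, 6.07 and 7.45 FPKM in vehicle replicates 1, 2 and 3 and at 3.63, 4.53 and 4.73 FPKM in FGF1ΔHBS replicates 1, 2 and 3. Its log2 fold change of -0.50 (standard error 0.12, adjusted p = 0.116 by limma) was close to that of *Bhlhe40*. *Tfrc*, the transferrin receptor of iron uptake, had a log2 fold change of -0.84 (standard error 0.21, adjusted p = 0.116 by limma), and *Ucp3*, a mitochondrial uncoupling protein, one of -1.0 (standard error 0.31, adjusted p = 0.163 by limma). For each of these 3 genes every treated heart was below every vehicle heart, as for 13.6% of all genes tested. *Tsc22d3*, a target of both the clock and glucocorticoids, overlapped between the groups, at 48.3 to 63.2 FPKM with vehicle and 60.5 to 76.5 FPKM with FGF1ΔHBS. *Bcl6*, *Hspa1b* and *Cys1* had log2 fold changes between -0.094 and 0.23 and did not pass the test.

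**Figure D4:**
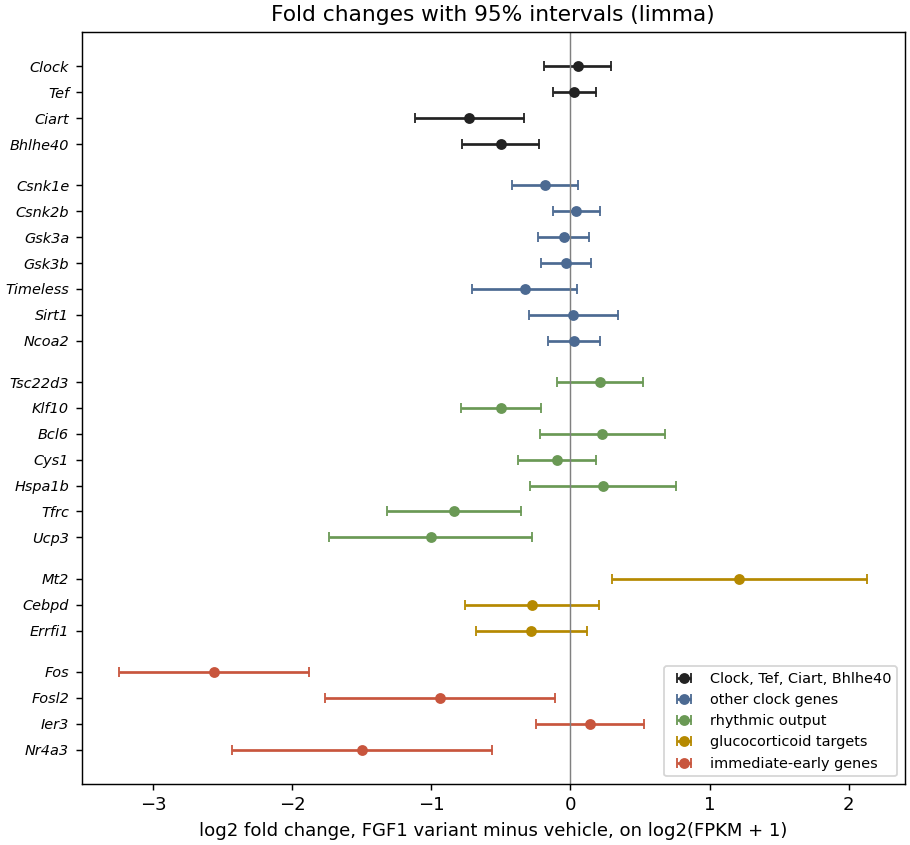
Log2 fold change of FGF1ΔHBS against vehicle on log2(FPKM + 1), with 95% intervals from limma, for the 4 clock genes and the listed genes tested, coloured by list. *Tsc22d3*, which is on 2 lists, is drawn once, under rhythmic output. The intervals of *Ciart* and *Bhlhe40* lie below 0 and those of *Clock*, *Tef* and the 7 other clock genes include 0.

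Genes of other programmes that the lists covered differed between the groups as well. *Bhlhe40* is known to be induced by stimuli that also induce immediate-early genes. Of the 4 immediate-early genes tested, of 20 listed, 3 were lower with FGF1ΔHBS at an unadjusted p-value under 0.05, beside 10% of all genes tested. *Fos* and *Nr4a3* averaged 0.792 and 0.343 FPKM with FGF1ΔHBS and passed the filter of 1 FPKM only through the vehicle hearts. *Nr4a2*, also listed, averaged 1.42 FPKM with vehicle and 0.398 FPKM with FGF1ΔHBS and was not tested. The list was also chosen with earlier results of these data known, so this count is not a test of it. *Fos* was at 5.64, 10.7 and 13.8 FPKM with vehicle and at 0.890, 0.450 and 1.04 FPKM with FGF1ΔHBS, and vehicle replicate 1 was again the lowest of the vehicle hearts. It was the 1 listed gene past the adjusted threshold (log2 fold change -2.56, limma adjusted p = 0.0441), and *Nr4a3* and *Fosl2* had log2 fold changes of -1.50 and -0.94. For *Fosl2* the groups overlapped, with vehicle replicate 1 at 3.26 FPKM and FGF1ΔHBS replicate 1 at 3.50 FPKM. *Ier3*, the remaining gene tested, had a log2 fold change of 0.14. Of the 4 glucocorticoid targets tested, of 13 listed, 1 was higher at an unadjusted p-value under 0.05, beside 7.1% of all genes tested. This was the metallothionein *Mt2*, at 17.1, 18.9 and 53.4 FPKM with vehicle and 61.9, 68.4 and 55.0 FPKM with FGF1ΔHBS. Of the other targets tested, *Cebpd* and *Errfi1* each had a log2 fold change of -0.28, and *Tsc22d3* one of 0.21. The median of the list was -0.032, against -0.021 over all genes tested. The part of these genes in the levels of *Ciart* and *Bhlhe40* was not tested.

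The hearts carried the markers of their label. *Tnnt2* and *Actc1*, which encode sarcomere proteins, lay between 4132 and 5541 FPKM in all 6 libraries. With *Nppa*, the natriuretic peptide gene, they were the 3 of 11 cardiomyocyte markers in the table and summed to 8708 to 10480 FPKM with vehicle and 8925 to 10382 FPKM with FGF1ΔHBS, *Nppa* being lower at an unadjusted p-value under 0.05. The labels speak of adipose tissue in their account of the library, and of 6 white adipocyte markers the 1 in the table, *Adipoq*, was at 0 to 0.217 FPKM with vehicle and 0.246 to 1.21 FPKM with FGF1ΔHBS. Of 8 fibroblast markers 1 was in the table, *Dcn*, at 154 to 288 FPKM with vehicle and 368 to 431 FPKM with FGF1ΔHBS. *Dcn* was higher at an unadjusted p-value under 0.05. The 2 of 6 smooth muscle and pericyte markers in the table summed to 18.7 to 27.6 FPKM with vehicle and 26.4 to 37.6 FPKM with FGF1ΔHBS. They went opposite ways. *Acta2* was higher at an unadjusted p-value under 0.05, with means of 12.3 and 22.7 FPKM. *Pdgfrb* averaged 11.4 FPKM with vehicle and 9.56 FPKM with FGF1ΔHBS, and its groups overlapped. The 2 of 8 endothelial markers summed to 21.7 to 46.7 and 24.9 to 42.0 FPKM, and the 1 of 5 blood markers, *Hbb-bt*, lay at 192 to 397 and 118 to 204 FPKM. *Cd8a*, the 1 of 6 lymphocyte markers, and *Slc12a1*, the 1 of 8 kidney markers, stayed under 1 FPKM in every library, and the macrophage, brown adipocyte, liver and neuron markers listed were not analysed here. The part of cell composition in the levels of the clock genes was not tested.

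**Figure D5:**
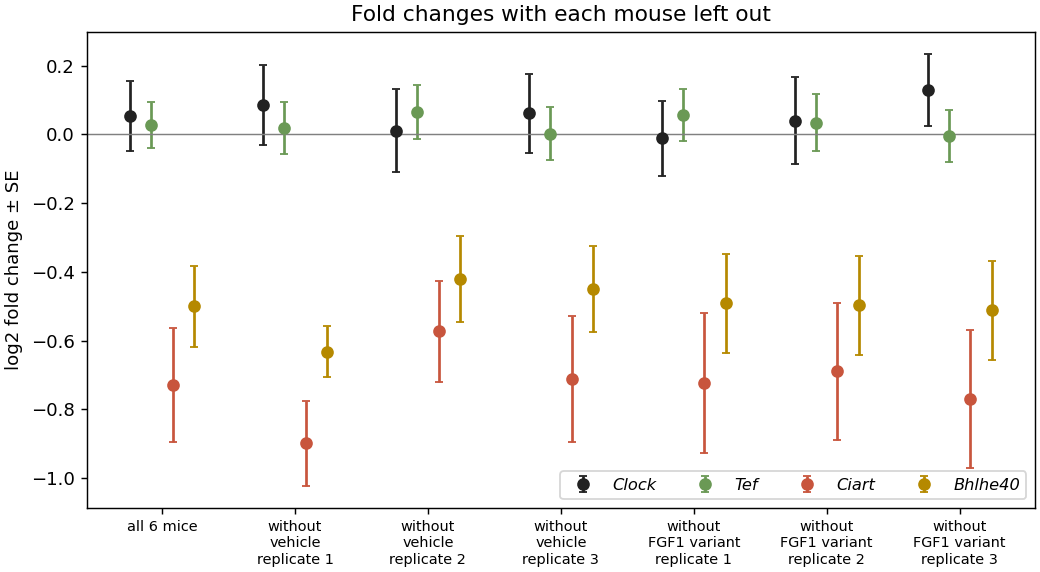
Log2 fold changes ± SE (limma) of the 4 clock genes with all 6 mice and with each mouse left out in turn. *Ciart* stayed between -0.90 and -0.57 and *Bhlhe40* between -0.63 and -0.42, whereas *Clock* and *Tef* stayed near 0 and each changed sign once.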

How the data were processed

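Raw reads were handled with Trimmomatic, and the authors deposited 1 FPKM value for each gene in each mouse. The submitters' processing notes also name Bowtie 0.12.2, HISAT2 2.0, StringTie 1.3.0 and the build mm8, with no role given. The loci in the table follow GRCm38, since 4104 of 4111 gene identifiers found in GENCODE M21 overlap their locus there. The study describes single-end reads and the labels paired-end libraries. The file ends within the description of its last gene and holds part of a transcriptome, so sums over it are not depths and no gene set test was run. Depth is not given by FPKM values. Steps between values under 0.3 FPKM put the libraries at 1.00 to 1.20 times the depth of vehicle replicate 1. The deepest by this measure was vehicle replicate 2, at 1.20, and the next was FGF1ΔHBS replicate 1, at 1.09. Vehicle replicate 2 also had the fewest genes listed at 0, with 606 against 712 to 781 in the others. Median ratio factors of the libraries lay between 0.970 and 1.03.

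Genes averaging 1 FPKM or more over the 6 mice were compared on log2(FPKM + 1), with a pseudocount of 1, by limma 3.58.1 in R 4.3.3 (eBayes with trend), with no pairing. Exact permutation tests used SciPy 1.17.1. The fit was tested on simulated data. The genes named were the 4 clock genes, the members of lists of clock, rhythmic, glucocorticoid and immediate-early genes and cell type markers, and the 3 genes of highest and lowest Pearson's r with each clock gene. The members and lists were chosen with earlier results of these data known. Nothing in the labels says more of the replicates than that they are separate mice. Alternatives were another pseudocount, other filters, median ratio and quantile scaling, GC correction, other forms of eBayes, a replicate block and leaving out each mouse.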

Additional observations from a re-analysis of the deposited data

How the results depend on the processing

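Of all genes tested, 2 passed the adjusted threshold of 0.05. A pseudocount of 0.1 gave 4, and there were 3 with a minimum mean of 5 FPKM, 5 with robust eBayes, 1 with median ratio scaling, quantile normalization, GC correction or eBayes without trend, and 0 without a filter, where 488 had an unadjusted p-value under 0.05 by limma. With no adjustment 349 passed 0.05, and with single mice left out the adjusted count ranged from 0 to 82. The 82 came without vehicle replicate 3, and the 0 without vehicle replicate 2 or FGF1ΔHBS replicate 2, with 270 and 231 genes at an unadjusted p-value under 0.05. Fewer genes were tested with the stricter filter, and otherwise the cause was not tested. Of those 349, 204 were lower and 145 higher, against 182 and 184 with median ratio scaling, 173 and 180 with quantile normalization and 170 and 182 with GC correction.

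*Ciart* stayed lower in all 14 alternatives in which it was tested, from -0.92 to -0.57, with adjusted p-values from 0.0669 to 0.349 by limma. *Bhlhe40* stayed lower in all 15, from -0.63 to -0.42, with adjusted p-values from 0.0431 to 0.349. With each mouse left out, *Clock* ranged from -0.011 to 0.13, *Tef* from -0.0058 to 0.065, the log2 difference in the ratio of *Tef* to *Clock* from -0.16 to 0.072, and the number of other clock genes at an unadjusted p-value under 0.05 from 0 to 1. *Ciart* and *Clock* were not tested with a minimum mean of 5 FPKM. In a fit with a replicate block, 0 genes passed the adjusted threshold and 269 the unadjusted one, and *Ciart* and *Bhlhe40* had adjusted p-values of 0.273 by limma. Deviations of same-numbered mice correlated at -0.0078, -0.16 and -0.22 across genes. Differently numbered mice were not compared, so these values do not settle whether the numbers pair the mice. The labels give no pairing.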
